A study of Auxenochlorella pyrenoidosa with 18 samples.

Results

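Scaffold00629 is one of the long pieces of the assembled genome of the green alga Auxenochlorella pyrenoidosa, and this account describes the genes predicted on it. All gene models placed on it in the deposited annotation were taken, which gave 335 of 10284 models (3.26%), from g4584 to g4918. They lie between bases 1 and 2001592, an annotated span of 2.00 Mb, and carry 342 transcripts. The scaffold was selected on its measured mean exon number and median intron length, so those values are given as a description, with no test. It was set beside the other 28 scaffolds with an annotated span (first to last gene model) of at least 500 kb, which carry 6935 models. The smallest scaffold inside that limit spanned 558 kb with 96 models, and the largest outside it 487 kb with 85 models.

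The series followed strain FACHB-9 from heterotrophic growth on glucose and urea to growth in light. The labels give 6 groups of 3 libraries of messenger RNA from whole cells: heterotrophic cells at 0, 24 and 72 h and phototrophic cells at 2, 8 and 24 h after the move to light. The libraries' values were not analysed here, and their depth is unknown here. The file used holds gene models made with the gene finder AUGUSTUS, and no values per library. The models carry identifiers only, without gene names or products. No genome sequence was used, so no base sequence is shown.

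Nuclear genes of eukaryotes are interrupted by introns, which the spliceosome removes from the transcript before it is translated. The phase of an intron says where it cuts the reading frame: phase 0 lies between codons, phase 1 after the first base of a codon and phase 2 after the second. An exon flanked by introns of the same phase can be skipped or copied without a shift of the frame. Green algae related to Chlorella are known for compact genomes with intron-rich genes. Neighbours whose starts face each other are called divergent, those whose ends face each other convergent.

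Genes on scaffold00629 had many exons, and they also had long coding sequences. The mean was 11.98 exons per gene (SD 8.77 over 335 genes), against a mean of 10.4 ± 0.783 (SD, n = 28) over the other scaffolds, which ranged from 8.05 to 12.5. Only scaffold00047, with 106 models, was higher among the 29. The median was 9 exons, above 18 of the other 28 and equal to 9 of them, so the distance from the others was clearer in the mean. The 25th and 75th percentiles were 6 and 15, and the highest gene had 65. Genes with 25 or more exons numbered 28, a share of 8.36% (95% Wilson interval 5.85 to 11.8%), against a median of 5.49% on the other scaffolds (range 1.49 to 9.43%). Mean coding length was 1725 bases, above all 28 others, whose mean was 1459 ± 115 bases (SD) and whose highest value was 1668 bases. Counting models with a mean coding score of 0.95 or more, it was above 25 of the 28. The median coding length of 1251 bases was 4th of the 29.

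Per coding base the scaffold was not rich in exons. It had 6.59 coding segments per 1000 coding bases, against a median of 6.80 on the other scaffolds (range 5.80 to 7.56), and stood 10th from the bottom. Its internal coding exons had a median length of 112 bases, against 107 on the others (range 97 to 126). The label exon-rich therefore holds for exons per gene and not for exons per length of coding sequence. When the genes of the other scaffolds were weighted to the coding length classes of scaffold00629 (bounded at 600, 1200 and 2400 bases), their mean was 11.4 exons, against 10.3 without weighting. The gap in mean exon number was 1.63 before this weighting and 0.576 after it. Exons here and in the classes below include those that lie wholly in untranslated parts, so the gap left is not one of coding exons alone. Coding segments, which were not weighted, averaged 11.36 per gene, against a mean of 9.96 over the other 28 scaffolds.

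**Figure D1:**
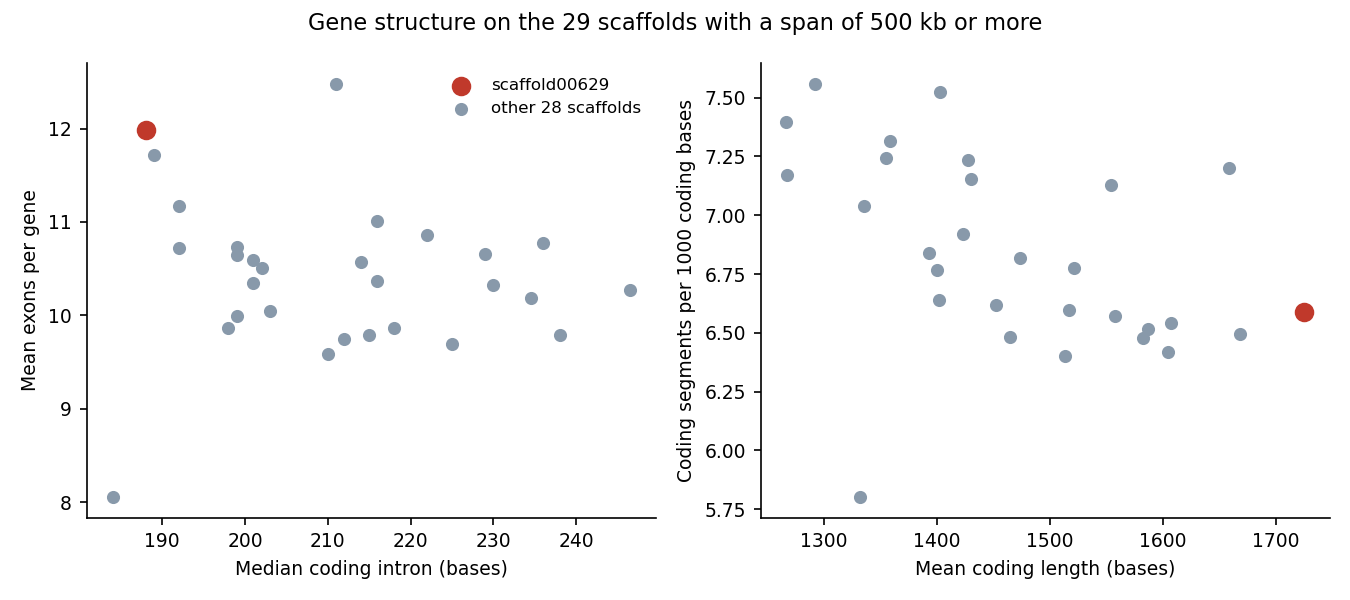
Each point is 1 of the 29 scaffolds with a span of 500 kb or more, with scaffold00629 in red. Left, mean exons per gene against median coding intron in bases; right, coding segments per 1000 coding bases against mean coding length in bases. Scaffold00629 lies at 11.98 exons and 188 bases on the left, and at the right end, at 1725 bases, with 6.59 segments.

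The shift lay at both ends of the length range. Genes with under 600 coding bases made up 12.5% of the scaffold (42 genes, 95% Wilson interval 9.41 to 16.5%), below all 28 others, which ran from 14.1 to 26.9%. Genes with at least 2400 coding bases made up 20.9% (70 genes, 16.9 to 25.6%), the 3rd highest share, against a median of 14.4% elsewhere. The classes between held 33.7% and 32.8% of the genes, close to the medians of 33.5% and 33.3% on the other scaffolds. Within the class under 600 bases the mean was 5.02 ± 2.54 exons (SD, n = 42), against a median of 4.60 over the other scaffolds. From 600 to under 1200 bases it was 7.87 ± 3.08 exons (SD, n = 113), against 7.16, the 4th highest. From 1200 to under 2400 bases it was 11.8 ± 5.40 exons (SD, n = 110), against 11.9. From 2400 bases it was 23.1 ± 11.1 exons (SD, n = 70), against 21.7, the 5th highest, so 3 of the 4 classes lay above the median of the other scaffolds.

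The largest model was g4677, with 65 exons and 9444 coding bases (3148 codons with the stop) on the minus strand between bases 526624 and 551187. It ranked 8th by exons and 13th by coding length among all 10284 models. Model g4716 had 57 exons over 18225 bases (bases 765650 to 783874, plus strand) and 6684 coding bases. Its gene score of 0.26 and mean coding score of 0.998 were the highest of the 9 models in the size lists (the 5 with the most exons, the longest coding sequence and the longest span). These are scores that AUGUSTUS wrote, as deposited, with no stated scale. Models g4747 (bases 928952 to 944336) and g4752 (bases 971922 to 988286), both on the plus strand, had 43 exons each and lay in the same window of 100 kb. Their coding sequences measured 6996 and 8715 bases, and their median introns 160 and 148 bases.

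Next by exon number was g4667, with 40 exons and 5016 coding bases (bases 469105 to 482619, plus strand). Models g4658 (34 exons, bases 411557 to 425349, minus strand) and g4648 (37 exons, bases 354205 to 367865, plus strand) had coding sequences of 6954 and 6738 bases. By genomic span, model g4900 came second and covered 19869 bases (bases 1880652 to 1900520, minus strand) with 33 exons and 3042 coding bases. Model g4704 covered 15606 bases (bases 672330 to 687935, plus strand) with 36 exons and 5979 coding bases. The 28 genes with at least 25 exons had a median gene score of 0.02, against 0.10 for the other genes of the scaffold, while the mean of their coding scores was 0.934 against 0.939.

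Almost every gene of the scaffold was split by introns. Model g4722 (bases 802071 to 802764, minus strand, 408 coding bases) was the single model without a coding intron, a share of 0.299% (95% Wilson interval 0.0527 to 1.67%), against a median of 0.816% on the other scaffolds. Both models that lacked a start or stop codon lay at the ends, g4584 from base 1 and g4918 up to base 2001592. The other 333 were complete (99.4%).

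Coding introns were short over most of their distribution. The median of 3472 introns was 188 bases, against 212 ± 16.3 bases (mean ± SD of 28 medians) on the other scaffolds. Only scaffold00132, at 184 bases, was lower. The 25th and 75th percentiles were 155 and 235 bases. The 5th percentile was 117 bases and the 95th 445 bases, and both stood 3rd from the bottom among the 29. Introns under 120 bases made up 5.85% (203 introns, 95% Wilson interval 5.11 to 6.68%), against a median of 4.25% elsewhere, and introns of 1000 bases or more 1.30% (45 introns, 0.970 to 1.73%), against 1.65%. In each class of coding length the median was among the lowest of the 29. It was 192 bases in genes with under 600 coding bases (the lowest) and 196 from 600 to under 1200 (4th lowest). From 1200 to under 2400 it was 188 bases (3rd lowest), and from 2400 it was 186 bases (2nd lowest). Genes with more exons tended to have shorter introns. Spearman's rho between exon number and median intron was -0.15 over 334 genes, 28th from the highest, against a median of -0.02 elsewhere.

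First introns were closer in length to later ones than on most scaffolds. Where a gene had 3 or more coding introns, first introns had a median of 184 bases and later introns 189 bases, against medians of 189 and 214 bases over the other scaffolds. The ratio of first to later introns by geometric means was 0.896, against a median ratio of 0.862 elsewhere (range 0.769 to 0.933), the 7th highest. In the 167 genes with at least 8 coding introns the second intron had a median of 186 bases, below all 28 others, which ran from 188 to 244.5 bases. The first intron of those genes, at 179 bases, was 9th from the bottom.

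Single introns reached much further. Model g4900 held the longest, 4665 bases between bases 1888806 and 1893470, the 9th of its 29 coding introns, with a score of 1. It ranked 10th among all 85135 coding introns of the annotation. Model g4839 had 3616 bases in its last intron (bases 1542702 to 1546317, score 0.99), and g4772 had 3084 bases in its first (bases 1098316 to 1101399, score 0.87). Models g4815 and g4819 followed with 2566 bases (bases 1389151 to 1391716) and 2370 bases (bases 1408948 to 1411317). All 5 lay beyond base 1000001, in the far part of the scaffold. The shortest coding intron, 52 bases in g4908 (bases 1961996 to 1962047), had a score of 0.57.

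Phase 1 was rarer on scaffold00629 than on any of the other 28 scaffolds. It held 24.2% of the coding introns (839 of 3472, 95% Wilson interval 22.8 to 25.6%), against 28.4 ± 1.81% (mean ± SD) on the others, whose lowest was 25.1% on scaffold00132. Of 51 others with a span of at least 200 kb, 3 were lower. Phase 0 held 52.2% (1814 introns, 50.6 to 53.9%), the 3rd highest, against a median of 49.1%. Phase 2 held 23.6% (819 introns, 22.2 to 25.03%), the 6th highest, against 22.3%. These intervals count introns as independent, which introns of 1 gene are not.

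Phase 1 was low in genes with many introns. In genes with fewer than 10 coding introns its share was 26.5%, 9th from the bottom, against a median of 27.95% elsewhere. In genes with 10 to 24 it was 23.2%, below all 28 others (24.6 to 31.4%). In genes with 25 or more it was 23.0%, 3rd from the bottom, and phase 0 reached 54.9% there. Internal coding exons with a phase 1 intron on both sides numbered 172 of 3138, or 5.48% (95% Wilson interval 4.74 to 6.33%), also below all others (6.43 to 10.7%). This class is the one best known from exons that encode extracellular domains of animal proteins. The square of the phase 1 share, which independent neighbours would give, was 5.84% on the scaffold, against a median of 7.97%, and also the lowest. The observed share minus this square was -0.358 percentage points, 6th from the bottom, against a median of 0.414. The low share of this class thus largely follows from the low phase 1 share. Median intron length differed little by phase, with 191, 184 and 188 bases in phases 0, 1 and 2.

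**Figure D2:**
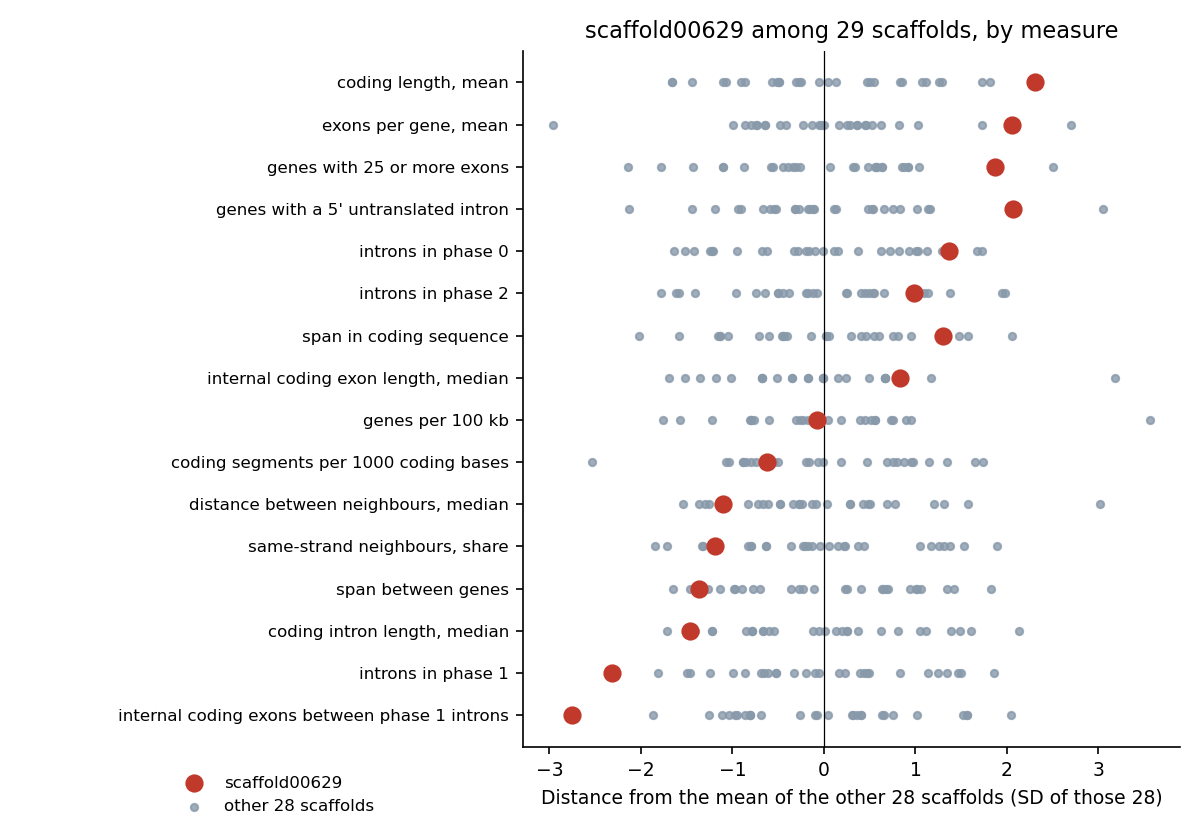
Rows are 16 measures; red marks scaffold00629 and grey points the other 28 scaffolds, each as its distance from the mean of those 28 in units of their SD. Scaffold00629 is rightmost for mean coding length and leftmost for both phase 1 measures, and near 0 for genes per 100 kb.

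Over 51 measures, many of which overlap, scaffold00629 stood highest in 1 (mean coding length), lowest in 2 (both of phase 1) and within the 3 highest or lowest in 20. A single scaffold has no replicate, so no test was made and positions among the 29 describe it. The same models gave the values it was chosen for and the others.

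The untranslated ends differed from most scaffolds mainly in the share of models with a 5' intron. Of 335 models with a predicted 5' end, 109 had an intron in the 5' untranslated part, or 32.5% (95% Wilson interval 27.7 to 37.7%), against 25.2 ± 3.57% (mean ± SD) on the others. Only scaffold00992 was higher, at 36.1%. These models held 176 such introns with a median of 177.5 bases, against 194.75 bases elsewhere. They had 9.66 coding segments on average, while models without one had 12.2, the highest mean of the 29 scaffolds for such models. An intron in the 3' untranslated part was predicted in 16 of 333 models (4.80%, 95% Wilson interval 2.98 to 7.66%). That was the 5th highest share, against a median of 3.83%. The median untranslated lengths were close to the middle, 75 bases at the 5' end against 74, and 149 bases at the 3' end against 146.5.

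More than 1 transcript was predicted for 7 genes (2.09%), against a median of 1.58%. They were g4604, g4642, g4720, g4777, g4878, g4881 and g4885. The last 3 of them lay within 1 window, between bases 1755286 and 1785310.

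Exon number and intron length changed along the scaffold. In windows of 100 kb numbered from base 1, with genes assigned by their midpoint, 20 windows held 11 to 25 genes each, with a median of 16.5. The bases beyond the last full window held 1 gene and are left out. Mean exons per window ran from 7.52 in window 3 to 19.0 in window 10, with a median of 12.6, and exceeded the median of 414 windows on the other scaffolds (10.2) in 15 of 20. Window 10 had the longest coding sequences too, with a mean of 3051 bases over 13 genes.

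Most of the windows with short introns lay together. Median intron length was lowest in window 6, at 162 bases, and highest in window 16, at 224 bases, and 15 of 20 windows were under the median of 207 bases for windows elsewhere. In windows 5 to 11 it stayed between 162 and 187 bases, while mean exons stayed between 12.4 and 19.0. Outside that stretch, windows 2 and 3 had similar medians of 187.5 and 182.5 bases. Window 3 also had the lowest mean exons of the scaffold, 7.52. The 7 windows from 5 to 11 carried 117 of the 335 genes and 16 of the 28 genes with at least 25 exons. They were marked out by these same window values, so the count of large genes is no separate result. The 5 windows above the median of windows elsewhere were 14, 15, 16, 19 and 20, with 208 to 224 bases. Short introns were thus not spread evenly over the scaffold.

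With the span split at its midpoint, the far part had a median intron of 203 bases and the near part, from base 1, 176 bases. The difference of 27 bases was 8th among the 29 scaffolds, whose other members had a median absolute difference of 18.25 and a highest of 60. The far part held 10 genes with at least 25 exons and the near part 18. Mean exons were 11.2 in the far part and 12.7 in the near part. Phase 1 held 22.7% of introns in the far part and 25.4% in the near part, so the part with the shorter introns had the higher phase 1 share. Phase 1 was lowest in window 13, at 16.0%, and highest in window 1, at 32.8%.

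**Figure D3:**
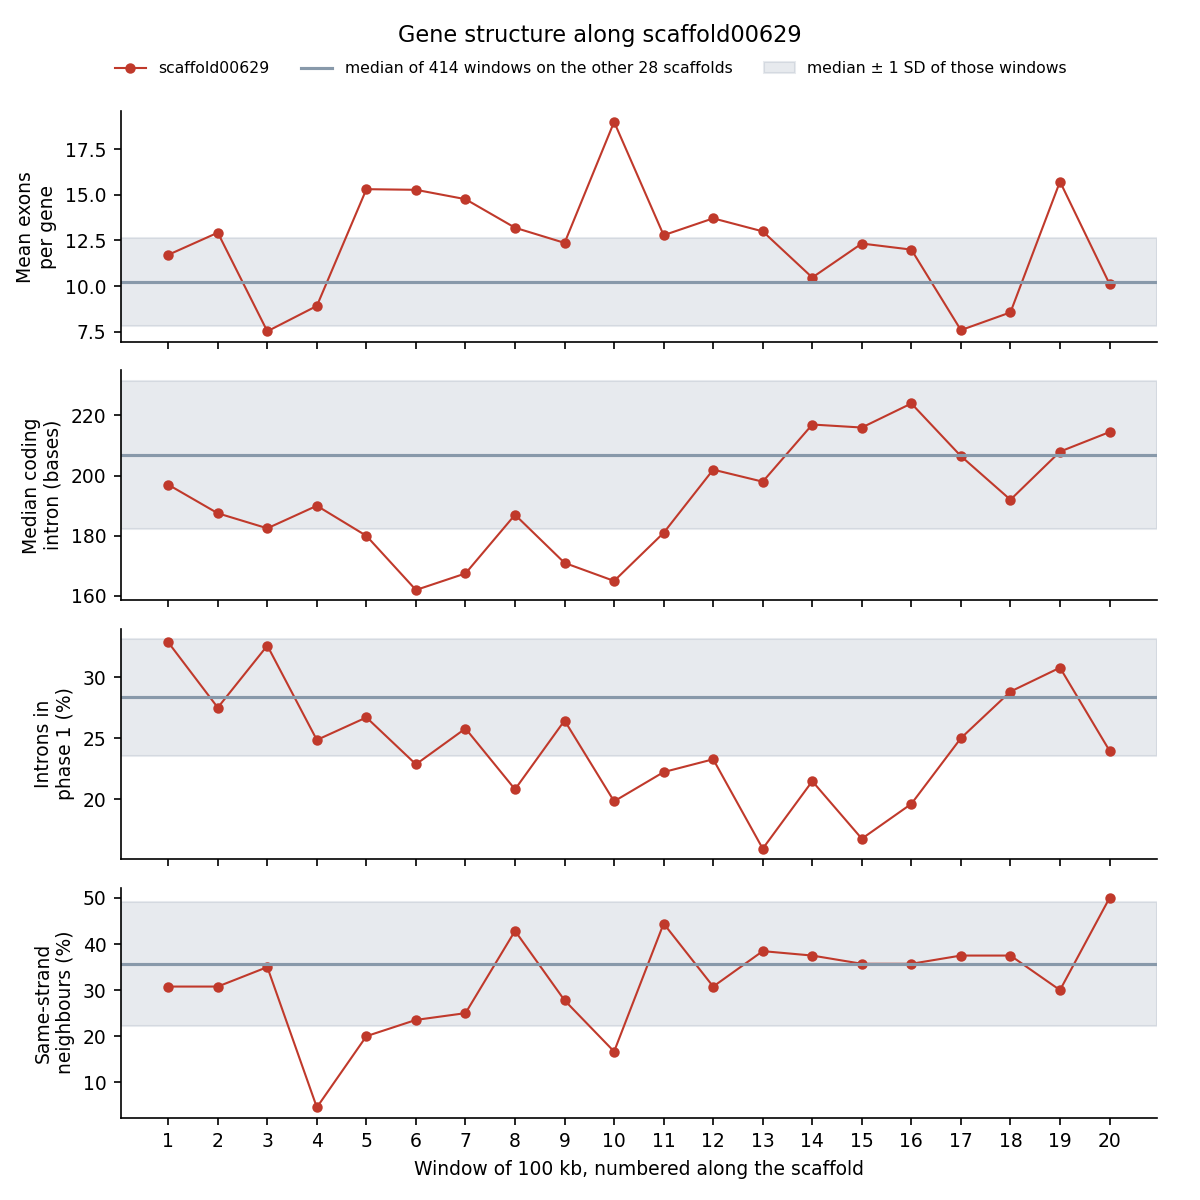
Mean exons per gene, median coding intron (bases), share of introns in phase 1 and share of same-strand neighbours in 20 windows of 100 kb along scaffold00629 (red); the grey line and band give the median ± 1 SD of 414 windows on the other 28 scaffolds. Introns are shortest in window 6 (162 bases), phase 1 is lowest in window 13 (16.0%), and window 4 has 1 same-strand pair among 22.

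Neighbouring genes resembled each other in intron length. Spearman's rho between the median introns of adjacent genes was 0.35 (332 pairs), against a median of 0.10 on the other scaffolds (range -0.10 to 0.34). For genes 10 places apart it was 0.21 (323 pairs), the 3rd highest of the 29. Across the 20 windows, intron length and the distance between genes had a rho of 0.52, and mean exons and intron length one of -0.43. Over the 414 windows elsewhere these were 0.39 and -0.26. Adjacent genes and windows share scaffold and neighbourhood, so these values are descriptions.

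Gene density was in the middle of the range, while neighbours were closer than on most scaffolds. The scaffold held 16.7 genes per 100 kb, against a median of 16.7 on the others. The median distance between neighbours was 375 bases, against 547 (range 293 to 1146), 5th from the bottom. Coding sequence took 28.9% of the span, against a median of 24.7%, coding introns 40.2%, against 39.1%, and the space between genes 21.6%, against 27.8% (3rd lowest). The median gene covered 3734 bases, against 3430.

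The space between genes was uneven. Neighbours less than 200 bases apart made up 29.6% (99 of 334 pairs, 95% Wilson interval 24.997 to 34.7%), against a median of 23.8%. Gaps of 10 kb or more numbered 5. The widest measured 18250 bases (bases 1649343 to 1667592) between the convergent genes g4857 and g4858. The next, 15366 bases between g4589 and g4590 (bases 28891 to 44256), was convergent too. The others lay between same-strand genes: 14626 bases from g4709 to g4710, 12508 bases from g4607 to g4608 and 11541 bases from g4753 to g4754. One pair overlapped, the divergent g4885 and g4886, by 55 bases (bases 1785256 to 1785310).

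Neighbours lay on opposite strands more often than on most scaffolds. Of 334 pairs, 105 were on the same strand, or 31.4% (95% Wilson interval 26.7 to 36.6%), against 36.2 ± 3.98% (mean ± SD) on the others, 5th from the bottom. Convergent pairs numbered 114 and divergent pairs 115. Median distance was 175.5 bases for convergent pairs, 385 for divergent pairs and 625 for same-strand pairs, against medians of 273.75, 450 and 957.75 over the other scaffolds. Under 200 bases, 60 of 99 pairs were convergent, 30 divergent and 9 on the same strand. The same-strand share there was 9.09% (4.86 to 16.4%), 2nd lowest of the 29. At 3000 bases and over it was 51.2% (22 of 43 pairs, 36.8 to 65.4%), against a median of 50.4%. Between these classes the share did not rise steadily. It was 35.2% from 200 to under 500 bases, against a median of 36.2%. From 500 to under 1000 bases it was 48.1%, above the median of 41.0%. From 1000 to under 3000 bases it was 34.0%, against 42.1%.

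**Figure D4:**
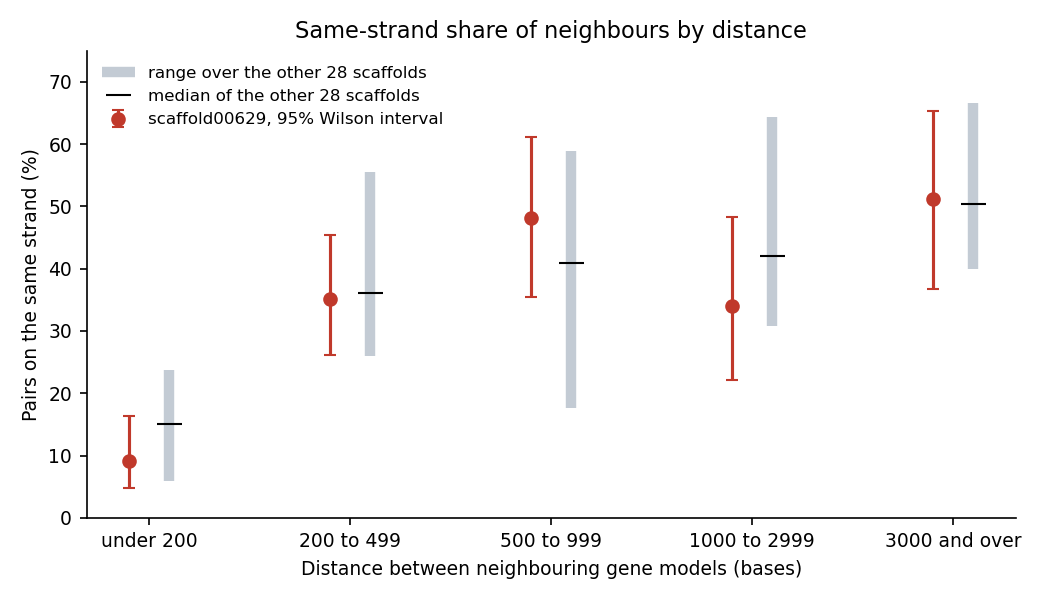
Share of neighbouring pairs on the same strand by the distance between the gene models (bases): scaffold00629 in red with its 95% Wilson interval, and the range (grey) and median (black line) over the other 28 scaffolds. The share is 9.09% under 200 bases and 51.2% from 3000 bases, and in every class it lies inside the range of the other scaffolds.

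Strands alternated from gene to gene over long stretches. The 335 genes fell into 230 runs on 1 strand, of which 162 held a single gene. The mean was 1.46 genes per run, against a median of 1.56 on the other scaffolds, 5th from the bottom. The number of runs follows from the number of same-strand pairs, so this mean restates their share. The longest run on 1 strand was 7 genes, g4760 to g4766, on the minus strand between bases 1040868 and 1070691. It was longer than the median of the longest runs elsewhere, 5 genes (range 4 to 11). The longest stretch of alternating strands was 15 genes, g4632 to g4646, between bases 295779 and 347962. Its 14 gaps ran from 2 to 576 bases with a median of 177.5, and its genes had 4 to 23 exons. Such stretches reached 7 to 19 genes on the other scaffolds, with a median of 12, and at least 15 on 7 of them. Window 4, where most of it lies, had 1 same-strand pair among 22, the lowest share of the scaffold. In the far part 37.2% of pairs were on the same strand and in the near part 25.4%, a difference of 11.8 percentage points, 4th largest of the 29.

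Some models of the scaffold shared the lengths of successive exons with one another. Within scaffold00629, 5 pairs of models (9 models) had 5 or more consecutive internal coding exons of equal lengths, against at most 3 such pairs on any of the other 28 scaffolds, which differ in gene number. A further 5 pairs joined it to models of other scaffolds. Of the 13 models of scaffold00629 in these 10 pairs, 10 lay in windows 11 to 13, which hold 47 genes. Intron phases were equal along the shared run in all 10 pairs. Protein sequences were not compared.

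The longest run joined the divergent neighbours g4778 (minus strand, bases 1130174 to 1136241) and g4779 (plus strand, bases 1137757 to 1143511), 1515 bases apart. Their shared internal exons measured 72, 123, 51, 65, 48, 40, 48, 71, 62, 86 and 69 bases, and the last coding segments, of 201 bases, were equal as well. That block of 12 segments ends both coding sequences and holds 936 bases, of 1548 coding bases in g4778 and 2148 in g4779. Of the 10 introns between the 11 internal exons, 1 had the same length in both, 148 bases, and the median absolute difference was 29 bases.

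Models g4787 (bases 1196129 to 1210943) and g4800 (bases 1290859 to 1301500) shared 10 internal exons, of 177, 47, 52, 72, 131, 54, 67, 105, 146 and 93 bases. Both lie on the plus strand with 12 models between them. Upstream of this run 5 more segments in a row were equal, of 83, 146, 64, 78 and 152 bases, and the coding sequences ended alike with 175, 61 and 72 bases. A segment of 284 bases in g4787 and of 242 bases in g4800 separated the first of these blocks from the run. None of the 9 introns within the run was equal, and their median absolute difference was 19 bases.

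Models g4906 and g4907, convergent neighbours 706 bases apart near the far end, were alike at the start of their coding sequences. Their first 7 coding segments measured 78, 106, 23, 37, 52, 42 and 59 bases in both. The next intron had 159 bases in g4906 and 1607 bases in g4907. Model g4906 also shared 7 exons with g1299 of scaffold00093, further along its sequence, in segments 11 to 17. Model g1299 begins at base 1 of its scaffold.

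A smaller group shared one stretch of exon lengths in several models. Models g4780 and g4785, with 4 models between them, had 24, 132, 69, 126, 65 and 102 bases in common. Model g4666, 675637 bases away from g4780, shared 69, 126, 65, 102, 67 and 75 bases with it. Model g4788 shared 65, 102, 67, 75 and 42 bases with g9988 of scaffold01279. The 4 lengths 65, 102, 67 and 75 were thus found in g4666, g4780, g4788 and g9988. This group was picked out after the exon lengths were seen. Other partners lay on scaffold00992: g4796 shared 7 exons with g6916, g4770 shared 6 with g6776 and g4769 shared 5 with g6763.

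**Figure D5:**
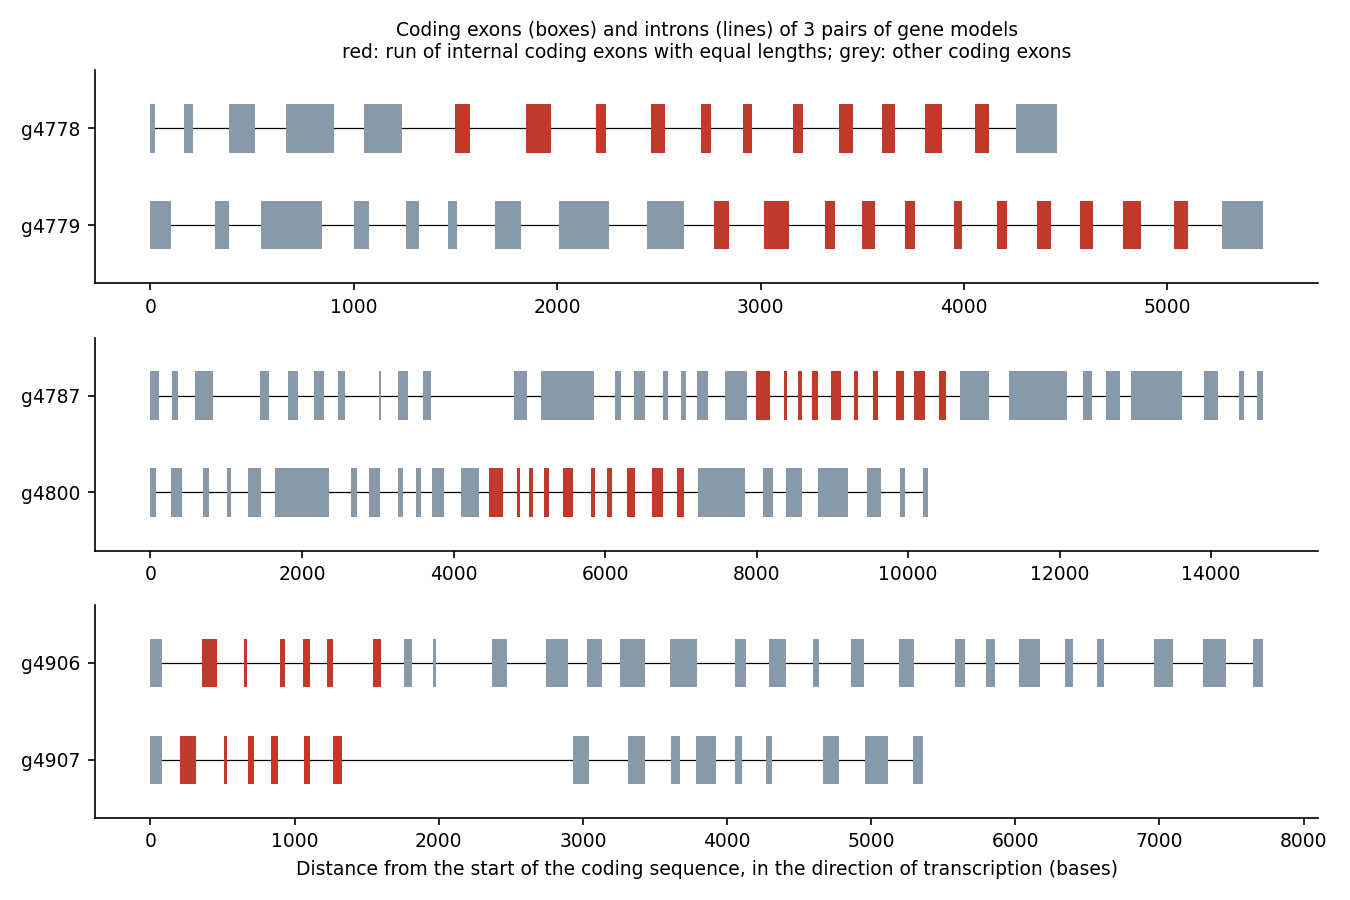
Coding exons (boxes) and introns (lines) of 3 pairs of gene models, to scale, from the start of the coding sequence in the direction of transcription (bases). Red boxes are the runs of 11, 10 and 6 internal coding exons with equal lengths in both models. Of the 10, 9 and 5 introns between them, 1 (in g4778 and g4779) has the same length in both models.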

How the data were processed

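The file analysed is an annotation of gene models that names AUGUSTUS as its source, per its second column. Which version, settings, evidence and assembly were used is not stated in the file or the labels. Coordinates count from 1, and the score of genes, coding segments and introns is the one the authors deposited, without a description. For the libraries, TopHat 1.3.3 and Cufflinks are listed in the submitters' processing notes.

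Models were read with Python 3.11.15, NumPy 2.4.6 and SciPy 1.17.1, and figures drawn with Matplotlib 3.10.9. The transcript with the most coding bases stood for each gene. Introns are gaps between its coding segments, and their phase comes from the deposited phase of the segment after them. It equalled the coding bases before the intron modulo 3 in 3457 of 3457 introns of complete models. Wilson intervals cover counting error only. No test was made, since 1 scaffold has no replicate. The code recovered known values in simulated models. Members, measures and lists were chosen with earlier results of these data known. Named models are those extreme in size, intron length, gaps, strand runs or shared exon runs. Expression tests were not run.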

Additional observations from a re-analysis of the deposited data

How the results depend on the processing

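Of 111 values under the alternatives, 65 were ranks, given as the percentage of other scaffolds with a lower value. Shares and ranks were held to the Wilson interval of the main value, other values to 1 SD of the other scaffolds and the count of pairs to 1.5 times. By these limits 95 stayed and 16 moved, and a rank could lose first or last place and still stay. Without the 5 models with the most exons of each scaffold, and among scaffolds of at least 1000 kb, 100% of the others had fewer exons per gene. Scaffold00047, the only one that was higher, is left out by the limit of 1000 kb, so first place there follows from the limit. The 5 models removed are also a larger part of its 106 models than of the 335 on scaffold00629. Among 51 others of at least 200 kb, 48 had fewer exons per gene (94.1%), 2 had shorter introns, 50 had shorter mean coding length (98.0%) and 3 had a lower phase 1 share (5.88%). By medians scaffold00629 had 9 exons per gene, above 64.3% of the others, and 1251 coding bases. Its introns were the shortest among scaffolds of at least 1000 kb (0% lower), a limit that leaves out scaffold00132, the only one with a lower median. In models whose coding segments scored 0.95 or more on average, 195 of its 335, mean coding length was 1502 bases, above 89.3% of the others and no longer the highest, coding segments numbered 7.15 per 1000 bases and phase 0 held 54.2%. Between coding ends, which adds the untranslated parts, the median distance was 907 bases, 580.5 for convergent pairs (above 3.57% of the others) and 796 for divergent pairs. Pairs with shared exon runs numbered 10 with runs of at least 4, 2 with at least 7, and 3 with at most 5 models between them. The median in place of the mean, the distance limit on pairs, the removal of the 5 longest coding sequences and gene medians in windows were chosen after seeing the data. No paired analysis was possible because no value of any library was held.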
